A study of Rattus norvegicus with 6 samples.

Results

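The genes of cyclic AMP signalling were described in the contralateral prelimbic cortex (PL) of rats with spared nerve injury. Members were the probe sets whose only gene symbol in the platform annotation is that of an adenylyl cyclase (Adcy with a number), a phosphodiesterase (Pde with a number), a subunit of protein kinase A (Prkac, Prkar), an A-kinase anchor (Akap), Creb1, Atf1 or a Crtc coactivator. This gave 58 genes of 14217, read by 92 probe sets of 31042, and the value of a gene is the mean of its probe sets. The SNI group held 3 samples of male Sprague-Dawley rats 14 days after the tibial and common peroneal branches of the left sciatic nerve had been cut and the sural branch spared. The control group held 3 samples of male Sprague-Dawley rats at day 14, labelled only as control. The study describes a sham group, in which the nerves were exposed and not cut. It does not say that the control arrays came from that group. RNA of the PL was hybridized to Affymetrix Rat Genome arrays. No source used here says whether a sample is 1 rat or a pool, so the p-values below rest on sample-to-sample spread alone and that spread may be technical. The rats were several weeks old when acquired. In bulk tissue, fewer cells of a type and less RNA per cell cannot be told apart.

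Adenylyl cyclases make cyclic AMP (cAMP) from ATP when receptors engage stimulatory G proteins, and inhibitory G proteins hold several of them back. Cyclic AMP releases the catalytic subunits of protein kinase A (PKA) from their regulatory subunits, anchoring proteins keep the kinase beside its substrates, and phosphodiesterases end the signal. In neurons of the cortex PKA adjusts ion channels and glutamate receptors and, through CREB and its Crtc coactivators, the transcription of activity-dependent genes.

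The promoters of the 3 members with the smallest p, Adcy9, Prkacb and Akap5, are shown because CREB, where the pathway ends in the nucleus, binds the letters TGACGTCA, or the shorter core TGACG, which reads CGTCA on the other strand. Each is the RefSeq window on build GRCr8 from 250 bases before to 50 bases after an annotated start, written 5′ to 3′ on the strand of the gene, with the shorter core in capitals. Adcy9 lies at chr10:11645595-11645894 on the plus strand, Prkacb at chr2:238386266-238386565 on the minus strand and Akap5 at chr6:100786919-100787218 on the plus strand.
Adcy9: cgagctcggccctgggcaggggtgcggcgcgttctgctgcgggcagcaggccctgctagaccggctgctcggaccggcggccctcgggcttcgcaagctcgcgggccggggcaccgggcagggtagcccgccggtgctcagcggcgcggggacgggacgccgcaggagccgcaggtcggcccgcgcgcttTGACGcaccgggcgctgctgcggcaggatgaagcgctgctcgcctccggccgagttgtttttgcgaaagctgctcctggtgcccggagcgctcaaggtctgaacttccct
Prkacb: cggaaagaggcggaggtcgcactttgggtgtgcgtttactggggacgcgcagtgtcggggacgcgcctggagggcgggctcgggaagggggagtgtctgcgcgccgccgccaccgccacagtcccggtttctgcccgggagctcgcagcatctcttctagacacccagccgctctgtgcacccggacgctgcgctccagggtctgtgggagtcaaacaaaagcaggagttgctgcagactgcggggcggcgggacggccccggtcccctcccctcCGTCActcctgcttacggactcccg
Akap5: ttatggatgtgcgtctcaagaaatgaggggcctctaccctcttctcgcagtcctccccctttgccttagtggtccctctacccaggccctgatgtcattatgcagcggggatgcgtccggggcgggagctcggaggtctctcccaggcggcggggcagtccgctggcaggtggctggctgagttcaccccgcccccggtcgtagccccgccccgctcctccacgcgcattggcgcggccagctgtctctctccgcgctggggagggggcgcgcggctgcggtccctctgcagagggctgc
The window of Adcy9 held 1 core, at −60 relative to the start, and that of Prkacb held 1, beginning 25 bases after it, while these letters are not in the window of Akap5. Windows were matched for 45 of the 58 genes, some with several starts, and 15 of their 58 windows held a core (25.9%), against 21.2% of all 33469 windows. The full element TGACGTCA, which contains the core on both strands, was in 1 member window, that of Akap17a (1.72%), and in 1.83% of all windows.

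Each probe set was deposited as log2 values with its own median over all arrays set to 0, so differences between groups can be read, but not the level of an mRNA, and the presence of the markers of the labelled tissue could not be checked. The control samples varied more than the SNI samples. The median SD of a gene was 0.06 among the SNI samples and 0.09 among the control samples. The larger SD was in the control group for 43 of the 58 members (74.1%), against 70.6% of all genes. Along principal component 1 (37.0% of the variance) control samples 1 and 3 (14.3 and 8.82) stood apart from control sample 2 (−6.07) and the SNI samples (−5.90 to −5.38). The bacterial hybridization controls, added to every sample, averaged 0.11 on the SNI arrays and −0.16 on the control arrays. Among neuron markers listed for the tissue, Syt1 and Snap25 were lower in the SNI group and Map2 was higher at an unadjusted p under 0.05, with 8 of 10 markers below 0, and the mean of the list lay between −0.13 and 0.0011 in SNI samples and between −0.05 and 0.10 in control samples. Of 12 microglia markers, 8 were higher and none was lower by the same measure, and the list mean lay between 0.06 and 0.15 in SNI samples and between −0.16 and −0.07 in control samples. All 5 markers of oligodendrocyte precursors were above 0 without overlap of the groups, 2 of them at an unadjusted p under 0.05, with list means of 0.05 to 0.13 in SNI samples and −0.10 to −0.06 in control samples. Of 4 blood cell markers 2 were higher, the globin Hbb (0.49) and the heme synthesis enzyme Alas2 (0.44), with list means of 0.05 to 0.30 in SNI samples and −0.21 to −0.02 in control samples. Of 9 endothelial markers 2 were higher (22.2%), and of 9 oligodendrocyte markers 1 was lower (11.1%). Over all genes, 3.96% were higher and 9.19% were lower at this threshold, and 6.39% were higher without overlap of the groups. No marker of astrocytes, pericytes, meninges or choroid plexus had an unadjusted p under 0.05. The meninges markers varied widely, with list means of −0.28 to 0.30 in SNI samples and −0.18 to 0.77 in control samples. Control sample 3 was at 1.88 for Col1a2, 1.67 for Ogn and 0.62 for Col1a1. It was at 0.44 for Lum, 0.41 for Igf2 and 0.11 for Dcn. For each of these genes it was the highest of the control samples. The part of these differences in the results below was not tested.

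No member passed an adjusted p of 0.05 in limma with Benjamini-Hochberg adjustment over all 14217 genes, and neither did any other gene (0% called). At an unadjusted p under 0.05 (limma, two-sided), 3 members were higher and 6 were lower in the SNI group. That is 15.5% of the members, against 13.2% of all genes. By direction, 5.17% of members were higher, against 3.96% of all genes, and 10.3% were lower, against 9.19% of all genes. The share of members at this threshold was near the background, so the count is not a result about the pathway. Members and other genes counted below as higher or lower are those with an unadjusted p under 0.05, none of which passed after adjustment. The groups did not overlap for 5 higher and 9 lower members (8.62% and 15.5%), against 6.39% and 13.7% of all genes, or for 14 members in either direction (24.1%, against 20.1%). The study names limma for its arrays and an unpaired t-test in its general statistics. That t-test, called the methods' t-test below, gave 4 higher and 6 lower members without adjustment, where 12.6% of all genes passed. After Benjamini-Hochberg adjustment it gave 0. The median log2 difference, SNI minus control, was −0.0092 over the members and −0.011 over all genes.

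**Figure D1:**
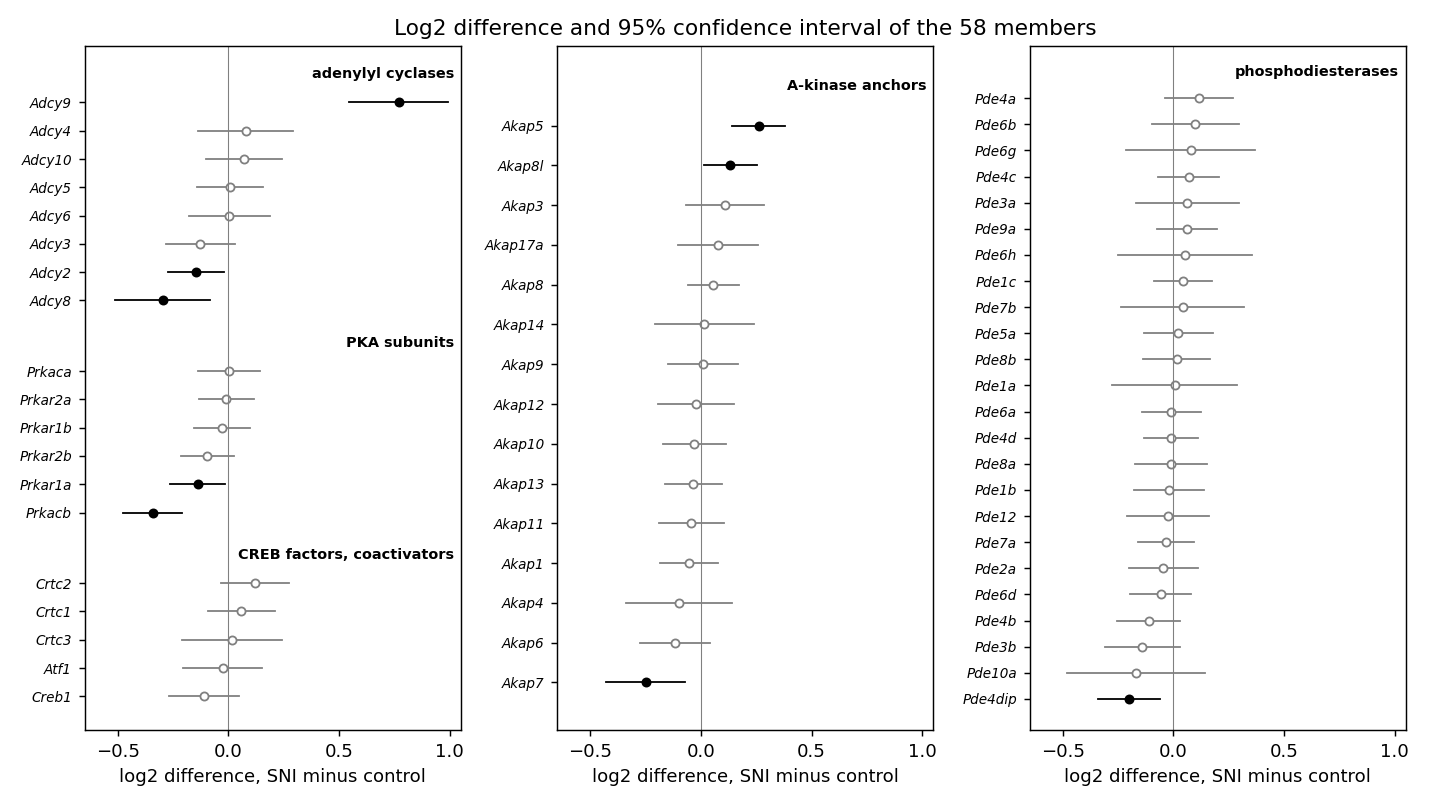
Log2 difference, SNI minus control (x axis) for each of the 58 members (rows, by family); points are the difference, lines the 95% confidence interval of limma, and filled black points have an unadjusted p under 0.05. Adcy9 at 0.77 lies far to the right of the other members, Prkacb at −0.34 is the lowest, and among the genes with a Pde symbol only the interval of Pde4dip leaves out 0.

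Among the adenylyl cyclases, the enzymes that make cAMP, 1 was higher and 2 were lower (37.5%, against 13.2% of all genes). The median of the 8 genes, too few for a share to be read, was 0.0054. Adcy9, a membrane cyclase found in many tissues, had the largest difference of all members. Its log2 value was 0.25, 0.46 and 0.28 in SNI samples 1, 2 and 3, against −0.59, −0.48 and −0.25 in control samples 1, 2 and 3. Every SNI sample lay above every control sample. The log2 difference was 0.77 (SE 0.10, 95% confidence interval 0.54 to 0.99), a 1.70-fold higher signal in the SNI group (limma adjusted p = 0.127). The gene was read by 1 probe set, which among all probe sets had an adjusted p = 0.0635.
Adcy8, a cyclase that calcium and calmodulin stimulate, was at −0.03, −0.35 and −0.15 in the SNI samples and at 0.10, 0.03 and 0.24 in the control samples. The SNI samples lay below the control samples, but SNI sample 1 and control sample 2 were close to each other. The log2 difference was −0.30 (SE 0.09, limma adjusted p = 0.257).
Adcy2, a cyclase that G protein beta-gamma subunits can stimulate, was at −0.09, −0.08 and −0.03 in the SNI samples, against 0.12, 0.03 and 0.09 in the control samples. The groups did not overlap, and the log2 difference was −0.15 (SE 0.05, limma adjusted p = 0.323).
Adcy3, which the study lists among the targets of its miRNAs, was at −0.16, −0.11 and 0.01 in the SNI samples and at −0.01, 0.02 and 0.13 in the control samples. The groups overlapped, and the 95% confidence interval of its difference (−0.13) ran from −0.28 to 0.03. The other cyclases, Adcy4, Adcy5, Adcy6 and the soluble cyclase Adcy10, had differences between 0.0043 and 0.08 with overlapping groups.

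Among the subunits of PKA, 5 of 6 genes had a negative difference and 2 (33.3%) had an unadjusted p under 0.05, both lower in the SNI group. Over all genes, 7785 of 14217 had a negative difference and 9.19% were lower at this threshold. With 6 genes such a count is not a result about the family. Prkacb encodes the catalytic subunit Cβ. It was at −0.13, −0.13 and −0.17 in the SNI samples, against 0.23, 0.11 and 0.24 in the control samples, and the groups did not overlap. The log2 difference was −0.34 (SE 0.06, 95% confidence interval −0.47 to −0.21), a 1.27-fold higher signal in the control group (limma adjusted p = 0.143). All 3 of its probe sets were lower without overlap of the groups, at −0.50, −0.36 and −0.17, each with an unadjusted p under 0.05.
Prkaca, the gene of the second catalytic subunit Cα, was at −0.02, −0.06 and 0.06 in the SNI samples and at 0.02, 0.03 and −0.08 in the control samples. Its difference was 0.0030, with a 95% confidence interval of −0.14 to 0.14, and the groups overlapped. Within each sample, Prkacb minus Prkaca, a pair chosen after its values were seen, was −0.12, −0.07 and −0.24 for SNI and 0.21, 0.07 and 0.33 for control. The difference of −0.34 between the groups had a p = 0.1 in an exact two-sided permutation test over the samples, the smallest p that 3 against 3 samples allow.
Prkar1a, the regulatory subunit RIα, was at −0.05, −0.04 and −0.04 in the SNI samples, against 0.07, 0.05 and 0.16 in the control samples. The SNI samples lay close together below the control samples, and the log2 difference was −0.14 (SE 0.05, limma adjusted p = 0.335). Of its 3 probe sets, 1 was at −0.26 and the others at −0.09 and −0.07.
Prkar2b, the subunit RIIβ, which is abundant in brain, was at −0.04, −0.02 and −0.04 in the SNI samples and at 0.10, 0.02 and 0.06 in the control samples. The groups did not overlap, but its difference of −0.09 had a 95% confidence interval that included 0 (−0.21 to 0.02); the methods' t-test counted it as lower before adjustment. Prkar1b was at −0.04, −0.0082 and 0.02 in the SNI samples and at 0.0082, 0.08 and −0.03 in the control samples. Prkar2a, a listed miRNA target, was at −0.03, −0.02 and 0.07 in the SNI samples and at 0.0009, 0.04 and 0.01 in the control samples. For these last genes the groups overlapped, with differences of −0.03 for Prkar1b and −0.0091 for Prkar2a.
Of the 3 listed inhibitor peptides of the catalytic subunits, Pkib and Pkia were lower and Pkig was higher at an unadjusted p under 0.05, each without overlap of the groups. Pkib was at −0.09, −0.34 and −0.18 in the SNI samples, against 0.24, 0.12 and 0.20 in the control samples, a difference of −0.39 (SE 0.08, limma adjusted p = 0.175). Pkia had a difference of −0.18 and Pkig one of 0.15.

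**Figure D2:**
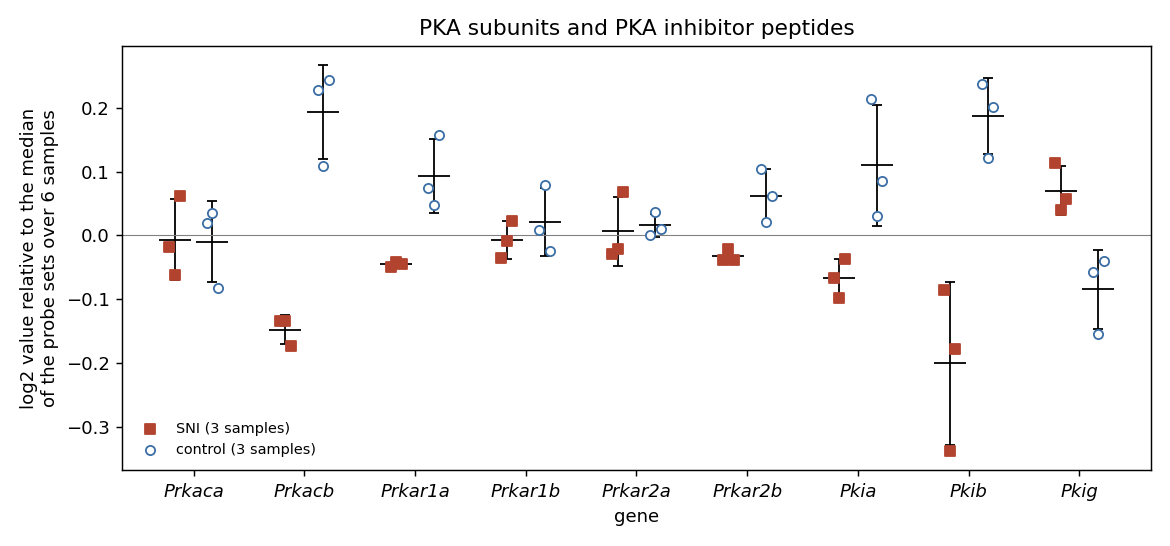
Log2 value relative to the median of the probe sets (y axis) of the 6 PKA subunits and the 3 inhibitor peptides (x axis); filled squares are the 3 SNI samples and open circles the 3 control samples, with the mean (bar) and SD (error bar). Prkacb spans −0.17 to −0.13 in SNI and 0.11 to 0.24 in control, while the groups of Prkaca overlap.

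Among the 15 A-kinase anchors, 2 were higher and 1 was lower (20%, against 13.2% of all genes), and the median was −0.02. Akap5, a scaffold that holds PKA, calcineurin and protein kinase C at the postsynaptic membrane, was at 0.14, 0.10 and 0.18 in the SNI samples, against −0.15, −0.10 and −0.10 in the control samples. The spread within each group (SD 0.04 and 0.02) was small beside the gap, and the groups did not overlap. The log2 difference was 0.26 (SE 0.05, 95% confidence interval 0.14 to 0.38), a 1.20-fold higher signal in the SNI group (limma adjusted p = 0.179).
Akap8l, a nuclear protein related to the anchor Akap8, was at 0.06, 0.09 and 0.05 in the SNI samples, against −0.04, −0.05 and −0.11 in the control samples. The difference on the log2 scale came to 0.13 with an SE of 0.05 and a limma adjusted p = 0.332, with 2 of its 3 probe sets at 0.20 and 0.17 and the third at 0.03. Akap8 itself was at 0.06, and its groups did not overlap, though its 95% confidence interval included 0 (−0.06 to 0.17). The methods' t-test counted it as higher before adjustment.
Akap7, an anchor of PKA at membranes and calcium channels, was at −0.07, −0.08 and −0.02 in the SNI samples and at 0.24, 0.03 and 0.31 in the control samples. Control samples 1 and 3 were high and control sample 2 lay near the SNI samples. The log2 difference was −0.25 (SE 0.08, limma adjusted p = 0.256), and its 2 probe sets were at −0.41 and −0.09.
Akap6, an anchor at the nuclear envelope of muscle and nerve cells, was read differently by its 2 probe sets. One was lower without overlap of the groups, at −0.26 (unadjusted p under 0.05), and the other was at 0.02. The remaining anchors, Akap1, Akap3, Akap4, Akap9, Akap10, Akap11, Akap12, Akap13, Akap14 and Akap17a, had differences between −0.10 and 0.11, and all their groups overlapped at the gene level. The 2 probe sets of Akap12 lay on opposite sides of 0, at 0.13 and −0.18.

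**Figure D3:**
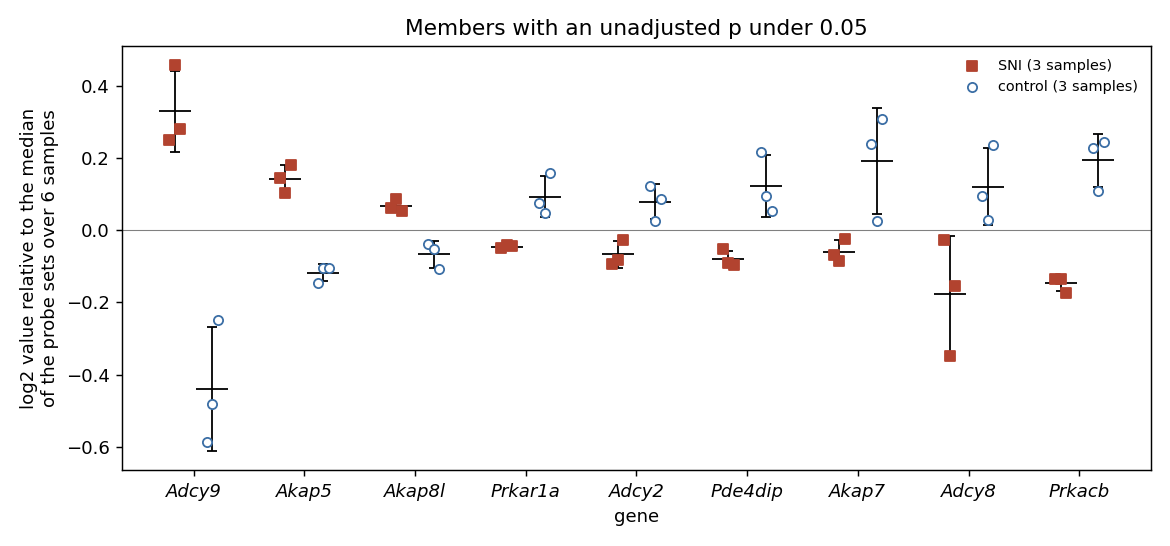
Log2 value relative to the median of the probe sets (y axis) of the 9 members with an unadjusted p under 0.05 (x axis); filled squares are the 3 SNI samples and open circles the 3 control samples, with the mean (bar) and SD (error bar). For each gene the groups do not overlap, and Adcy9 spans 0.25 to 0.46 in SNI and −0.59 to −0.25 in control.

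Of the 24 genes with a Pde symbol, 12 had a positive and 12 a negative difference. Only 1, Pde4dip, had an unadjusted p under 0.05 (4.17%, against 13.2% of all genes). Pde4dip, or myomegalin, is no phosphodiesterase but a centrosome and Golgi protein that binds PDE4D. It was at −0.05, −0.09 and −0.10 in the SNI samples, against 0.22, 0.10 and 0.05 in the control samples. The groups did not overlap, and the log2 difference was −0.20 (SE 0.06, limma adjusted p = 0.245). Its 2 probe sets were at −0.33 and −0.07.
The 8 genes of the families that hydrolyse cAMP alone (Pde4, Pde7 and Pde8) had a median of 0.0018. Pde4b was at −0.10, −0.04 and 0.0053 in the SNI samples and at 0.03, 0.02 and 0.16 in the control samples, without overlap, but the 95% confidence interval of its difference of −0.11 included 0 (−0.25 to 0.03). Pde4a had the highest difference of the family at 0.11 with overlapping groups. The 3 probe sets of Pde4d, a gene with many isoforms, were at 0.08, 0.07 and −0.18, so their mean of −0.01 stands for unequal readings.
The 7 genes of the families that hydrolyse both cAMP and cGMP (Pde1, Pde2, Pde3 and Pde10) had a median of −0.02, with Pde3b at −0.14. Pde10a, the phosphodiesterase of medium spiny neurons of the striatum, was at −0.06, −0.0091 and 0.02 in the SNI samples and at 0.50, 0.01 and −0.06 in the control samples. Control sample 1 alone was high, and the difference of −0.17 had a 95% confidence interval of −0.48 to 0.14. Of 12 measured striatal markers, 4 had a positive and 8 a negative difference. At an unadjusted p under 0.05, 3 were lower, among them Penk (−0.40) and Ppp1r1b (−0.26), and none was higher. Control sample 1, high for Pde10a, was the highest of the control samples for Ppp1r1b (0.18) but the lowest for Penk (0.15). It was at 0.01 for Drd2 and −0.02 for Adora2a. The mean of the list lay between −0.07 and −0.03 in the SNI samples and between −0.0005 and 0.13 in the control samples. The part of striatal tissue in these values was not tested. The 7 genes of the cGMP-specific families (Pde5, Pde6 and Pde9, with the accessory subunits of the retinal enzyme) had a median of 0.05 and overlapping groups throughout. Pde12, a mitochondrial enzyme that trims RNA, was at −0.02.

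Among the transcription factors and coactivators at the end of the pathway, none of 5 genes had an unadjusted p under 0.05. Creb1 was at −0.02, −0.06 and −0.0032 in the SNI samples, against 0.21, 0.04 and −0.0030 in the control samples, and the groups almost touched. Its difference was −0.11 (95% confidence interval −0.27 to 0.05), but −0.05 without control sample 1. It was −0.34 with the mean of the hybridization controls, which separated the groups, as a covariate. In no other setting did Creb1 have an unadjusted p under 0.05. Of its 4 probe sets 1 was lower without overlap, at −0.35 (SE 0.08, limma adjusted p = 0.153 over all probe sets), while the others were at 0.05, −0.05 and −0.09. Crtc2, which moves to the nucleus when it is dephosphorylated and joins CREB there, was at 0.02, 0.03 and 0.22 in the SNI samples and at −0.04, −0.02 and −0.03 in the control samples. SNI sample 3 carried most of the difference of 0.12 (95% confidence interval −0.03 to 0.27). Crtc1, the main neuronal form, was at −0.0089, 0.05 and 0.03 in the SNI samples and at −0.03, 0.06 and −0.14 in the control samples. Crtc3 was at 0.11, −0.0034 and −0.0044 in the SNI samples and at −0.18, 0.22 and 0.0050 in the control samples. Atf1, a close relative of Creb1, was at −0.06, −0.0039 and 0.0039 in the SNI samples and at 0.05, −0.15 and 0.12 in the control samples. For these last genes the groups overlapped.

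Over all families, 49 of the 58 members had an unadjusted p of 0.05 or more. For each of the 49 the 95% confidence interval of the measured signal excluded a change of 1.5-fold in either direction. Signal over background could not be read, so these intervals do not bound the change of the mRNA itself. For genes such as Creb1 and Akap6 they bound a mean of unequal probe sets. Among the 92 member probe sets, 4 were higher and 10 were lower at an unadjusted p under 0.05 (15.2%, against 13.1% of all probe sets). Over all probe sets 5.6% were higher and 7.47% were lower. After adjustment 0.0322% of all probe sets passed, and none of a member did. The 25 genes with more than 1 probe set had all of them on the same side of 0 in 12 cases.

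**Figure D4:**
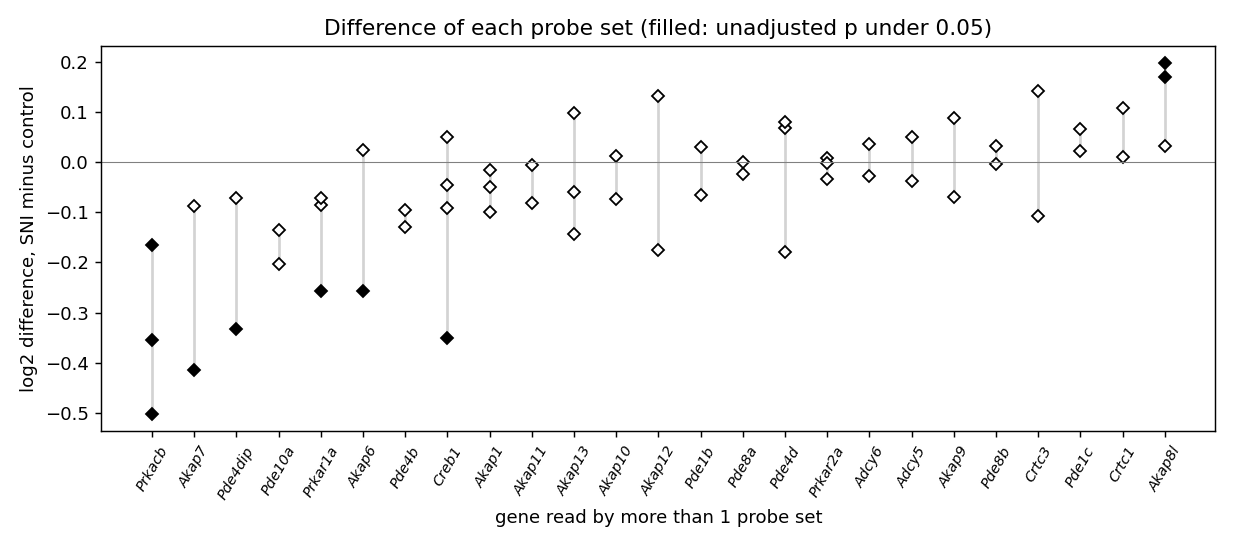
Log2 difference, SNI minus control (y axis) of each probe set of the 25 members read by more than 1 (x axis), joined by a grey line per gene; filled diamonds have an unadjusted p under 0.05. The 3 probe sets of Prkacb are all filled and lie between −0.50 and −0.17, while Creb1 and Akap6 each have 1 filled probe set and others on both sides of or near 0.

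Other genes of the pathway, listed with earlier results of these data known, were counted in the same fit. In it 13.2% of all genes had an unadjusted p under 0.05, and none passed after adjustment. By direction 3.96% of all genes were higher and 9.19% were lower, so lower genes were the more frequent over the whole array. Of 8 measured G protein alpha subunits, 3 were lower and none was higher. Gnai1, an inhibitor of cyclases, had a difference of −0.33 (SE 0.10), with −0.02, −0.11 and −0.09 in the SNI samples, against 0.35, 0.02 and 0.41 in the control samples. Gnaq was at −0.21 and Gnao1 at −0.16, while Gnas, the stimulatory subunit, was at 0.04 with overlapping groups. Of 31 receptors that couple to inhibitory G proteins, 1 was higher (Chrm4, 0.31) and 7 were lower, among them the adenosine receptor Adora1 (−0.23) and the metabotropic glutamate receptor Grm7 (−0.41), with a list median of −0.07. Of 16 receptors that couple to stimulatory G proteins, none was higher and 1 was lower, the orphan receptor Gpr12 (−0.28), with a list median of 0.05.
Among 14 cAMP exchange factors and cAMP-gated channels, 2 were higher and 1 was lower. Rapgef4, the exchange factor Epac that is enriched in brain, was at 0.24, 0.19 and 0.03 in the SNI samples, against −0.03, −0.45 and −0.09 in the control samples, a difference of 0.35 (SE 0.11). Hcn2, a pacemaker channel that cAMP opens more readily, was higher by 0.23 and Rapgef2 was at −0.19. Of 13 PKA substrates and phosphatase regulators, 2 were higher and 2 were lower. Ppp1r1b, whose product DARPP-32 inhibits a phosphatase once PKA phosphorylates it, was at −0.26 and is also a listed striatal marker. The glutamate receptor subunits Grin1 and Gria1 were at 0.19 and 0.23. Of 13 cGMP cyclases and kinases with their partner Nos1, 2 were higher and none was lower. Of 16 other CREB and ATF factors, coactivators and their kinases, 1 was higher, Sik1 (0.27), a kinase that keeps Crtc proteins out of the nucleus, and none was lower. Crem, which encodes an inducible repressor of CREB targets, was at −0.12 with overlapping groups.
Of 32 measured cAMP-responsive target genes, 10 were higher and 3 were lower, while the median was −0.01. The genes with the smallest p were Penk (−0.40), also a listed striatal marker, Fos (0.93) and Egr2 (1.01), of which the study chose Egr2 on these samples. Most of the higher ones are immediate early genes that calcium and growth factor signals also induce. Fos was at 0.28, 0.83 and 0.60 in the SNI samples, against −0.31, −0.48 and −0.28 in the control samples. The blood marker Hbb was at 0.02, 0.69 and 0.46 in the SNI samples, against −0.23, −0.04 and −0.02 in the control samples. Both were lowest in sample 1 and highest in sample 2 among the SNI samples. Among the control samples both were highest in sample 3, while Fos was lowest in sample 2 and Hbb in sample 1. The part of blood cells in the counts of target genes was not tested.

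Adcy9, Prkacb, Akap5 and Pde4dip kept an unadjusted p under 0.05 in each of the 14 other settings, which left out 1 sample at a time or changed the normalization, the test, the probe set summary, the weights or the covariates. Adcy9 lay between 0.68 and 1.15 and Prkacb between −0.39 and −0.32. With weights that let samples differ in their spread, limma gave Adcy9 and Prkacb an adjusted p = 0.0493 each, and over the 14 settings the adjusted p of both ran up to 0.571. Prkar1a and Akap8l had a p above 0.05 when any 1 of SNI samples 1, 2 and 3 and control sample 3 was left out (−0.14 to −0.11 for Prkar1a and 0.11 to 0.14 for Akap8l), and Adcy2 without SNI sample 1, SNI sample 2, control sample 1 or control sample 3 (−0.14 to −0.12). With the mean of the hybridization controls as a covariate, Adcy2, Adcy8, Akap7, Akap8l and Prkar1a had a p above 0.05, and Pde4dip was at −0.39. Adcy2 (−0.19), Adcy8 (−0.44) and Akap7 (−0.30) were further from 0 there than as deposited, and Akap8l (0.10) and Prkar1a (−0.09) were nearer. That covariate was 0.05 to 0.19 in SNI samples and −0.22 to −0.05 in control samples. It separated the groups, so this fit cannot fully part it from the group.

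**Figure D5:**
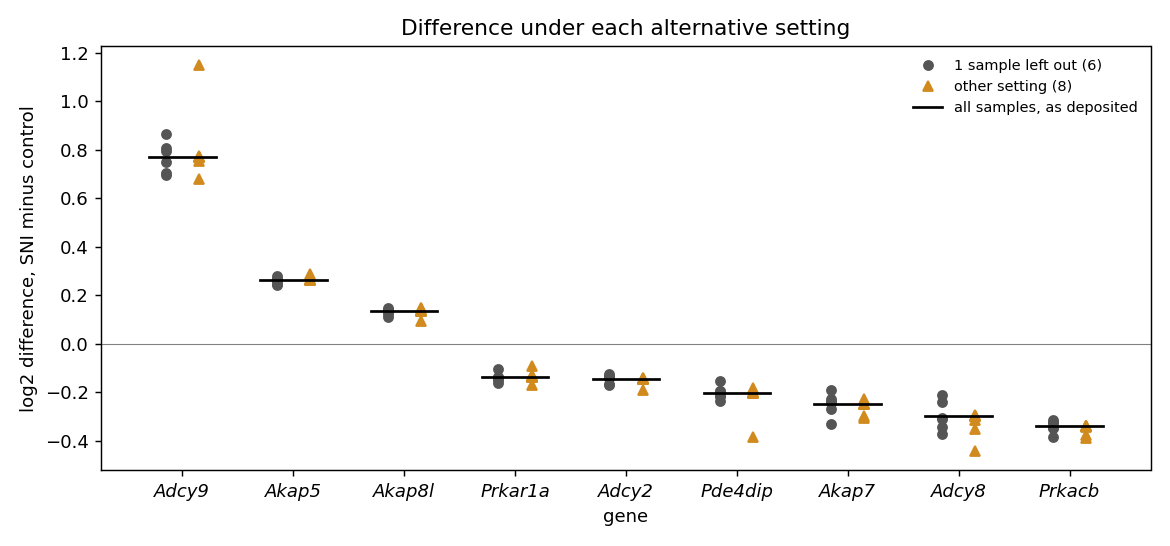
Log2 difference, SNI minus control (y axis) of the 9 members with an unadjusted p under 0.05 (x axis); the bar is the value with all samples as deposited, grey circles leave out 1 of the 6 samples and orange triangles are the 8 other settings. No point crosses 0, and the highest value of Adcy9 (1.15) is that with the hybridization controls as a covariate.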

How the data were processed

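Total RNA of the contralateral PL was labelled with biotin and hybridized to Affymetrix GeneChip Rat Genome arrays. The authors summarised the arrays with RMA and quantile normalization. The deposited log2 values were also set to a median of 0 for each probe set (within 4.78e-07), a step that is not described, so intensity trends and filters on dim probes could not be used. The version of RMA was not found. Of 31099 probe sets, 57 array controls were left out. Symbols came from the platform annotation, and 3 probe sets with the joint symbols of Pde11a and Cyct were left out. Genes and probe sets were fitted with limma 3.58.1 (lmFit and eBayes) in R 4.3.3, SNI minus control, with Benjamini-Hochberg adjustment over all genes or all probe sets. The fit was tested on simulated data. Plots used Python 3.11.15 and matplotlib 3.10.9. Samples were grouped by their titles. The miRNA arrays, behavior and qPCR were not analysed here. Named are members with an unadjusted p under 0.05, the listed miRNA targets, the PKA subunits, CREB factors and Crtc genes, family extremes, members whose probe sets disagree, and up to 3 genes per pathway list by smallest p; others were named after their values were seen. Members and lists were chosen with earlier results of these data known.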

Additional observations from a re-analysis of the deposited data

Results flagged for a closer look

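The mean of the 18 hybridization control probe sets, which are outside the measured rat genes, was higher on the SNI arrays than on the control arrays by 0.27 on the log2 scale, with values of 0.05 to 0.19 in the SNI group and −0.22 to −0.05 in the control group. Groups of 3 samples are too small for the test of single outlying samples.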

How the results depend on the processing

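The counts of 3 higher and 6 lower members at an unadjusted p under 0.05 stayed within 1.5 times under the other normalizations, tests and covariates, with 2 to 4 higher and 4 to 8 lower members, and with each sample left out, with 2 to 4 higher and 4 to 6 lower. At a p under 0.01, 2 members were higher and 1 was lower, and with probe sets in place of genes 4 were higher and 10 were lower. With array weights 2 members, Adcy9 and Prkacb, passed an adjusted p of 0.05, against 0 as deposited, and 17 of all genes passed; in every other setting run the count of members was 0. Over all genes, 1870 had a p under 0.05 as deposited, against 3285 without control sample 2, 3152 with array weights, 1204 with the hybridization controls as a covariate, 1177 without SNI sample 1 and 1146 without SNI sample 3. With that covariate 8 members had a p under 0.05, 4 of the 9 and also Akap14, Creb1, Pde10a and Pde1a. The median of the members was 0.018 with the hybridization controls as a covariate and lay between −0.03 and 0.0088 with a sample left out. The cause of these moves was not tested. With the replicate number as a block, 2 members were higher and 4 were lower, and Adcy2, Akap8l and Prkar1a lost their p under 0.05. Same-numbered samples did not deviate together (correlations of −0.02, −0.0074 and −0.05), and differently numbered ones had correlations of −0.05 to 0.08. Such small values cannot say whether same-numbered samples shared a preparation. None of the 9 members changed sign, while 6 of the 11 other members followed through the settings did. The methods' t-test gave Adcy8 a p above 0.05 and Akap8 and Prkar2b one under it. Pde4a had a p under 0.05 with array weights (0.14) and without control sample 1 (0.17). The number of arrays limits the precision, and signal over background could not be read.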
